A study of Mus musculus with 24 samples.

Results

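The transcripts described here are 8 markers of tendon and of the matrix at the myotendinous junction, where the muscle fibre meets the tendon: Scx, Mkx, Tnmd, Fmod, Kera, Chad, Comp and Thbs4. They were chosen by name as known tendon genes, with earlier results of these data known, and they are 8 of the 55385 genes counted. The source was RNA of gastrocnemius muscle from C57BL/6J mice, read as 24 libraries with 4 in each of 6 groups. The groups were young sham, young GFP, old GFP, old AAV-Kl, oldest-old GFP and oldest-old AAV-Kl, and the comparisons address age and the treatment of aged mice with Klotho, a circulating protein. GFP mice received a control AAV8 vector carrying green fluorescent protein, and AAV-Kl mice the same vector carrying mouse Klotho, through the tail vein. Both vectors were driven by LP1, a promoter active in liver, so that the muscle itself was not the intended site of expression. Young mice were 3 to 6 months old, old mice 21 to 24 months and oldest-old mice 27 to 29 months, as the study's methods define these classes. For uninjured mice, with no limit by age, the methods give a dose of 3e8 vector genomes each and tissue collection 14 days later, and they describe the sequenced mice as female. The sham mice carry that label alone: their sex and what was done to them are not given in the sources used here. Each library held between 36415886 and 59733985 reads on genes. The labels number the replicates of a group and do not name animals, and p-values measure the spread between these samples.

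Tendon is built by tenocytes, fibroblast-like cells whose fate is set by the transcription factors Scx and Mkx and whose mature state is marked by the membrane protein Tnmd. The collagen fibrils they lay down are spaced and cross-linked under the control of small leucine-rich proteoglycans such as Fmod and Kera, and they are joined to cells and to each other by Chad, Comp and Thbs4. A whole gastrocnemius ends in tendon and holds inner sheets of it, and the cells that gave these transcripts were not measured here. In such bulk samples, fewer cells of a type and less RNA per cell cannot be told apart.

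All 8 markers are annotated as protein-coding, and all 8 passed the filter on low counts. On the scale of CPM (reads on a gene scaled to a common library size) divided by exonic length in kilobases, Fmod had the highest mean level at 35.6, followed by Thbs4 at 20.7 and Chad at 9.93. Scx at 3.06, Tnmd at 2.98, Comp at 2.71 and Kera at 2.38 lay close together on that scale, and Mkx was lowest at 0.184. Mkx was thinly counted throughout, with 20 to 54 reads per library, and Kera had the lowest single count with a range of 4 to 917 reads. Thbs4 and Fmod never had fewer than 1541 reads in a library. The library to library range of the markers was wide: the highest CPM was 8.83 times the lowest for Fmod, 35.4 times for Chad and 285 times for Kera, against 2.66 times for Scx and 2.91 times for Mkx. Without oldest-old GFP 4, the lowest library for Tnmd, Fmod, Chad, Kera, Comp and Mkx, the highest was 23.2 times the lowest for Kera, 17.4 times for Chad, 9.07 times for Tnmd and 8.67 times for Fmod.

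**Figure D1:**
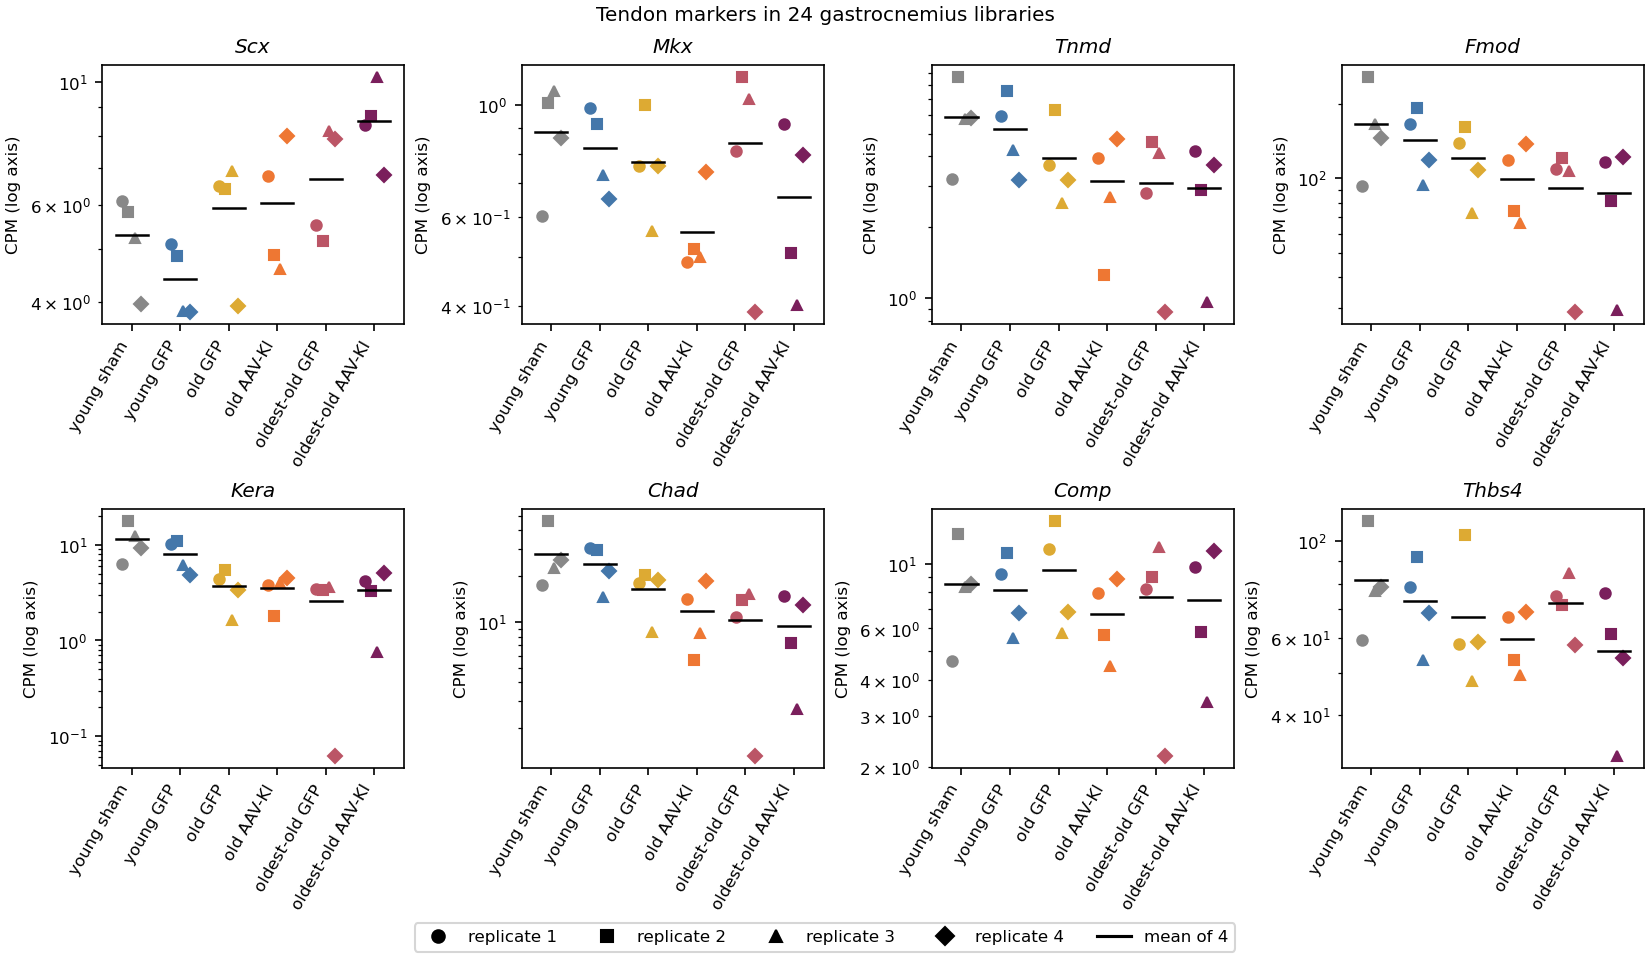
CPM (log axis) of the 8 tendon markers in each of 24 libraries, with points for single mice, shapes for replicate numbers and bars for the mean of 4. Kera lay between 4.78 and 17.8 in the young libraries and between 0.0623 and 5.46 in the older ones, while Scx had its highest value, 10.2, in oldest-old AAV-Kl 3.

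Scx (ENSMUSG00000034161.8), the basic helix-loop-helix factor that specifies tendon progenitors, gave 5.10, 4.85, 3.86 and 3.84 CPM in young GFP mice and 5.52, 5.16, 8.16 and 7.90 CPM in oldest-old GFP mice. Every oldest-old GFP library lay above every young GFP library, though the nearest values, 5.16 and 5.10, almost touched. The difference was 0.60 on the log2 scale (SE 0.21, 95% interval 0.17 to 1.03). After Benjamini-Hochberg adjustment over all genes the edgeR adjusted p was 0.0564, which did not pass the threshold of 0.05. Old GFP mice had 6.48, 6.4, 6.91 and 3.94 CPM, a range that overlapped that of young GFP mice through old GFP 4. Young sham mice, at 6.10, 5.83, 5.23 and 3.97 CPM, overlapped old GFP, old AAV-Kl and oldest-old GFP mice and lay below every oldest-old AAV-Kl mouse. The level of Scx was highest in oldest-old AAV-Kl mice, with 8.37, 8.69, 10.2 and 6.79 CPM, which overlapped the oldest-old GFP values. The 2 groups differed by 0.35 on the log2 scale (SE 0.21, 95% interval -0.08 to 0.78, edgeR adjusted p = 0.679).

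The Scx call turned on small changes in the analysis. DESeq2 on the same libraries gave a log2 difference of 0.58 between oldest-old and young GFP mice with an adjusted p of 0.0457, and without oldest-old GFP 2 edgeR gave 0.71 with an adjusted p of 0.0336. Over all alternatives run, the adjusted p for Scx in this comparison ran from 0.0336 to 0.174. Scx lies at chr15:76457452-76459458 (GRCm38, plus strand), wholly inside the ribosome biogenesis gene Bop1 on the opposite strand, with 0 shared exon bases. The libraries do not mark strand, with 49.8% to 50.4% of reads on the first strand, so reads from unspliced Bop1 over Scx cannot be told apart from Scx reads. Bop1 was itself highest in oldest-old GFP 4 at 33.5 CPM and oldest-old AAV-Kl 3 at 31.2 CPM, and over 24 libraries with group means removed Scx and Bop1 gave r = 0.44 (permutation p = 0.042, adjusted over 2 host gene pairs 0.0841; rho = 0.46, permutation p = 0.0406, adjusted 0.0812). Without the libraries farthest from the median of Scx, old GFP 4 and young sham 4, r was 0.46. The part of Bop1 in the Scx values was not tested.

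Mkx (ENSMUSG00000061013.6, chr18:6934518-7004780, minus strand, GRCm38), a homeobox factor that maintains collagen production in tenocytes, had 0.983, 0.917, 0.727 and 0.652 CPM in young GFP mice. In oldest-old GFP mice it had 0.809, 1.13, 1.03 and 0.389 CPM, a range that enclosed the young values. The log2 difference was 0.03 (SE 0.30, edgeR adjusted p = 0.969). The lowest group mean was that of old AAV-Kl mice at 0.561 ± 0.118 CPM (SD, n = 4) and the highest that of young sham mice at 0.883 ± 0.207 CPM (SD, n = 4). None of the 7 planned comparisons gave an edgeR p under 0.05 for Mkx, and its exons share 201 bases with an overlapping transcript, AC148004.2, that had 0 counts in every library.

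Tnmd (ENSMUSG00000031250.8, chrX:133850980-133865577, plus strand, GRCm38), a membrane protein of mature tenocytes, had 5.95, 7.57, 4.25 and 3.19 CPM in young GFP mice and 2.79, 4.58, 4.12 and 0.872 CPM in oldest-old GFP mice. Most of the oldest-old values lay within or just under the young range, and oldest-old GFP 4 lay far below it. The log2 difference was -0.77 (SE 0.49, 95% interval -1.78 to 0.24, edgeR adjusted p = 0.307), and without oldest-old GFP 4 it was -0.47. Old GFP mice, at 3.68, 6.31, 2.54 and 3.18 CPM, overlapped both groups. The group means ran from 5.87 ± 2.24 CPM in young sham mice to 2.94 ± 1.43 CPM in oldest-old AAV-Kl mice (SD, n = 4 each), and neighbours in that order differed by less than their spread.

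Kera (ENSMUSG00000019932.8, chr10:97606879-97613692, plus strand, GRCm38), a corneal and tendon proteoglycan that binds collagen fibrils, showed the widest gap between ages. In young GFP mice its level was 10.1, 11, 6.21 and 4.78 CPM, and in young sham mice 6.25, 17.8, 12.3 and 9.26 CPM. In old GFP mice it was 4.35, 5.46, 1.64 and 3.34 CPM, and in oldest-old GFP mice 3.44, 3.33, 3.58 and 0.0623 CPM. All 4 oldest-old GFP libraries lay below all 4 young GFP libraries, and old GFP mice overlapped young GFP mice only through old GFP 2. The log2 difference of oldest-old from young GFP mice was -1.63 (SE 0.64, 95% interval -2.96 to -0.30), with an edgeR adjusted p of 0.0896 that did not pass the threshold. The value of oldest-old GFP 4 rested on 4 reads, for which an exact Poisson interval (95%, counting error only) runs from 1.09 to 10.2 reads. Without oldest-old GFP 4 the log2 difference was -1.23 with an edgeR adjusted p of 0.118. With oldest-old AAV-Kl 3 left out as well, a setting chosen after the values were seen, it was -1.23 with an edgeR adjusted p of 0.0484, where 11.9% of all genes were called. Over all alternatives the adjusted p for Kera ran from 0.0484 to 0.184. Kera reached 3.82, 1.81, 3.95 and 4.47 CPM in old AAV-Kl mice and 4.16, 3.30, 0.767 and 5.11 CPM in oldest-old AAV-Kl mice, so that both AAV-Kl groups overlapped the GFP group of their age.

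Chad (ENSMUSG00000039084.8), a cartilage and tendon protein with leucine-rich repeats that binds collagen and integrins, had 30.8, 29.7, 14.6 and 21.7 CPM in young GFP mice and 10.8, 13.8, 15.2 and 1.31 CPM in oldest-old GFP mice. The groups overlapped only through young GFP 3 and oldest-old GFP 3. The log2 difference was -1.24 (SE 0.55, 95% interval -2.39 to -0.09, edgeR adjusted p = 0.136). Old GFP mice held 18.2, 20.5, 8.54 and 18.8 CPM, between the other ages and overlapping both. Chad at chr11:94565047-94569127 (GRCm38, plus strand) lies inside Acsf2 on the opposite strand, with 0 shared exon bases. The levels of Chad and Acsf2 were not associated over 24 libraries with group means removed (r = -0.17, permutation p = 0.493, adjusted 0.493; rho = -0.26, permutation p = 0.261, adjusted 0.261), and r was -0.22 without oldest-old GFP 4 and oldest-old AAV-Kl 3.

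Fmod (ENSMUSG00000041559.7, chr1:134037254-134048277, plus strand, GRCm38), the proteoglycan that guides collagen fibril assembly in tendon, had 166, 191, 94.0 and 118 CPM in young GFP mice and 109, 120, 107 and 28.98 CPM in oldest-old GFP mice. The ranges overlapped, with oldest-old GFP 4 alone far below. The log2 difference was -0.64 (SE 0.43, 95% interval -1.54 to 0.25, edgeR adjusted p = 0.339), and without oldest-old GFP 4 it was -0.36. Young sham 2, at 256 CPM, was the highest of the 24 libraries.

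Promoter windows of 250 bases before to 50 after the RefSeq transcription start were taken for 5 of the 8 markers: Tnmd, Fmod, Thbs4, Chad and Kera. A window for Mkx was not looked up. All 5 are shown because these markers varied together between mice, and they were searched on both strands for the E-box CANNTG, the core that basic helix-loop-helix factors such as Scx bind. Capitals mark each match, and CAGATG, which reads CATCTG on the other strand, is one form of CANNTG. The windows are on GRCm38.p6 at chr1:134037004-134037303 (plus strand) for Fmod, chr11:94564797-94565096 (plus strand) for Chad, chr10:97606955-97607254 (plus strand) for Kera, chrX:133850758-133851057 (plus strand) for Tnmd and chr13:92794769-92795068 (minus strand) for Thbs4.
Fmod: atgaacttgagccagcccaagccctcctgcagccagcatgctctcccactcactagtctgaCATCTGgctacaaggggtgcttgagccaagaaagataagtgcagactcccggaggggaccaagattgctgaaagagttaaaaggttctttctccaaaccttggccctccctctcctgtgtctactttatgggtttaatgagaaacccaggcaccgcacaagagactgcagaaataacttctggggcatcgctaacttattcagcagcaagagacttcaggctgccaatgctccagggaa
Chad: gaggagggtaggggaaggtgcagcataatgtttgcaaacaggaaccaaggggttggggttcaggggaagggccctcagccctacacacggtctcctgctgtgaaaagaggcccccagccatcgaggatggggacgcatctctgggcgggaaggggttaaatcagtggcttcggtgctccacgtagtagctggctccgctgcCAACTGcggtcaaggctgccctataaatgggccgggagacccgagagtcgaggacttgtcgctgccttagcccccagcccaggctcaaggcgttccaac
Kera: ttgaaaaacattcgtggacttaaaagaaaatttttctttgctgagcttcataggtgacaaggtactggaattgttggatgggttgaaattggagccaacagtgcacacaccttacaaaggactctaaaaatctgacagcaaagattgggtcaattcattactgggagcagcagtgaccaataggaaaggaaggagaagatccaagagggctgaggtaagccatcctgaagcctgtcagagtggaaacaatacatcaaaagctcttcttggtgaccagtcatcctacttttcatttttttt
Tnmd: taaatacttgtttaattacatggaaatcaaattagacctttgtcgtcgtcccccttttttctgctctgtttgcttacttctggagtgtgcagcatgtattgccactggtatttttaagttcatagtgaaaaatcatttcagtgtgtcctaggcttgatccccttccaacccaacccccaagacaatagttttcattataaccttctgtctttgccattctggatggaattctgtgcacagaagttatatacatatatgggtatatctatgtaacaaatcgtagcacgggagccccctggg
Thbs4: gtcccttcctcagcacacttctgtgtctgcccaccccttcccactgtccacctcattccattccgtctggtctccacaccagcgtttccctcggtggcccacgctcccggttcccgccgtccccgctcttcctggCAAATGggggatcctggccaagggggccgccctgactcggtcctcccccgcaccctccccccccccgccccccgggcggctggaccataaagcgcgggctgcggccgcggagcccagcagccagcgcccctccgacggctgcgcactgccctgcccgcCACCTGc
Thbs4 held 2 matches, Fmod held 1, which was also a match to CAGATG, and Chad held 1. Kera and Tnmd held 0 in these windows. The Kera window begins at 97606955, after the annotated gene start of 97606879, so it holds no base before that start. Of 32851 RefSeq windows of the same length, 72.3% held CANNTG and 17.2% held CAGATG, so a match is common, and it is a description of the letters alone.

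Comp (ENSMUSG00000031849.9, chr8:70373558-70382066, plus strand, GRCm38), a pentameric thrombospondin that links collagen fibrils, had 9.27, 11, 5.56 and 6.79 CPM in young GFP mice and 8.19, 9.02, 11.5 and 2.18 CPM in oldest-old GFP mice. The oldest-old range enclosed the young one. The log2 difference was -0.08 (SE 0.43, edgeR adjusted p = 0.928), and without oldest-old GFP 4 and oldest-old AAV-Kl 3 it was 0.22. The highest level was 14.1 CPM in old GFP 2. Thbs4 (ENSMUSG00000021702.7, chr13:92751590-92794818, minus strand, GRCm38), the thrombospondin found at the junction of muscle and tendon, had 78.3, 91.8, 53.6 and 68.6 CPM in young GFP mice and 74.7, 71.6, 84.4 and 58.0 CPM in oldest-old GFP mice. All of its oldest-old values lay within the young range, with a log2 difference of -0.02 (SE 0.25, 95% interval -0.54 to 0.50, edgeR adjusted p = 0.974). Of the 8 markers in that comparison, Scx alone had a narrower interval.

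Across the markers, oldest-old GFP against young GFP mice gave 0 of 8 with an edgeR adjusted p under 0.05, where 14.9% of all 17803 genes tested were called. These 2649 genes became 1704 without young GFP 1 and 1674 without young GFP 4. At an unadjusted edgeR p under 0.05 there were 3 of 8, Scx higher and Kera and Chad lower, against 29.8% of all genes, and DESeq2 called 1 of 8, Scx, against 17.4%. Groups did not overlap for 2 of 8, Scx and Kera, against 18.4% of all genes, so that the share among the markers was near the background. Old GFP against young GFP mice gave 0 of 8 by edgeR (background 4.7%), 0 of 8 at an unadjusted p under 0.05 (background 19.1%), 0 of 8 by DESeq2 (background 6.89%) and 0 of 8 without overlap (background 15.6%). The 837 genes behind that 4.7% became 366 to 540 on leaving out any 1 young GFP library, old GFP 1 or old GFP 2. The largest log2 differences there were -1.10 for Kera (SE 0.63, 95% interval -2.41 to 0.20) and -0.55 for Chad (SE 0.54). On leaving out each library they ran from -1.35 to -0.86 for Kera and from -0.75 to -0.34 for Chad. Oldest-old GFP against old GFP mice gave 0 of 8 by edgeR (background 0.00562%, or 0.0166% without oldest-old GFP 4 and oldest-old AAV-Kl 3). It gave 0 of 8 at an unadjusted p under 0.05 (background 12%), 0 of 8 by DESeq2 (background 0.675%) and 0 of 8 without overlap (background 5.65%). These comparisons share the young GFP or old GFP mice, and their values are given side by side only.

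**Figure D2:**
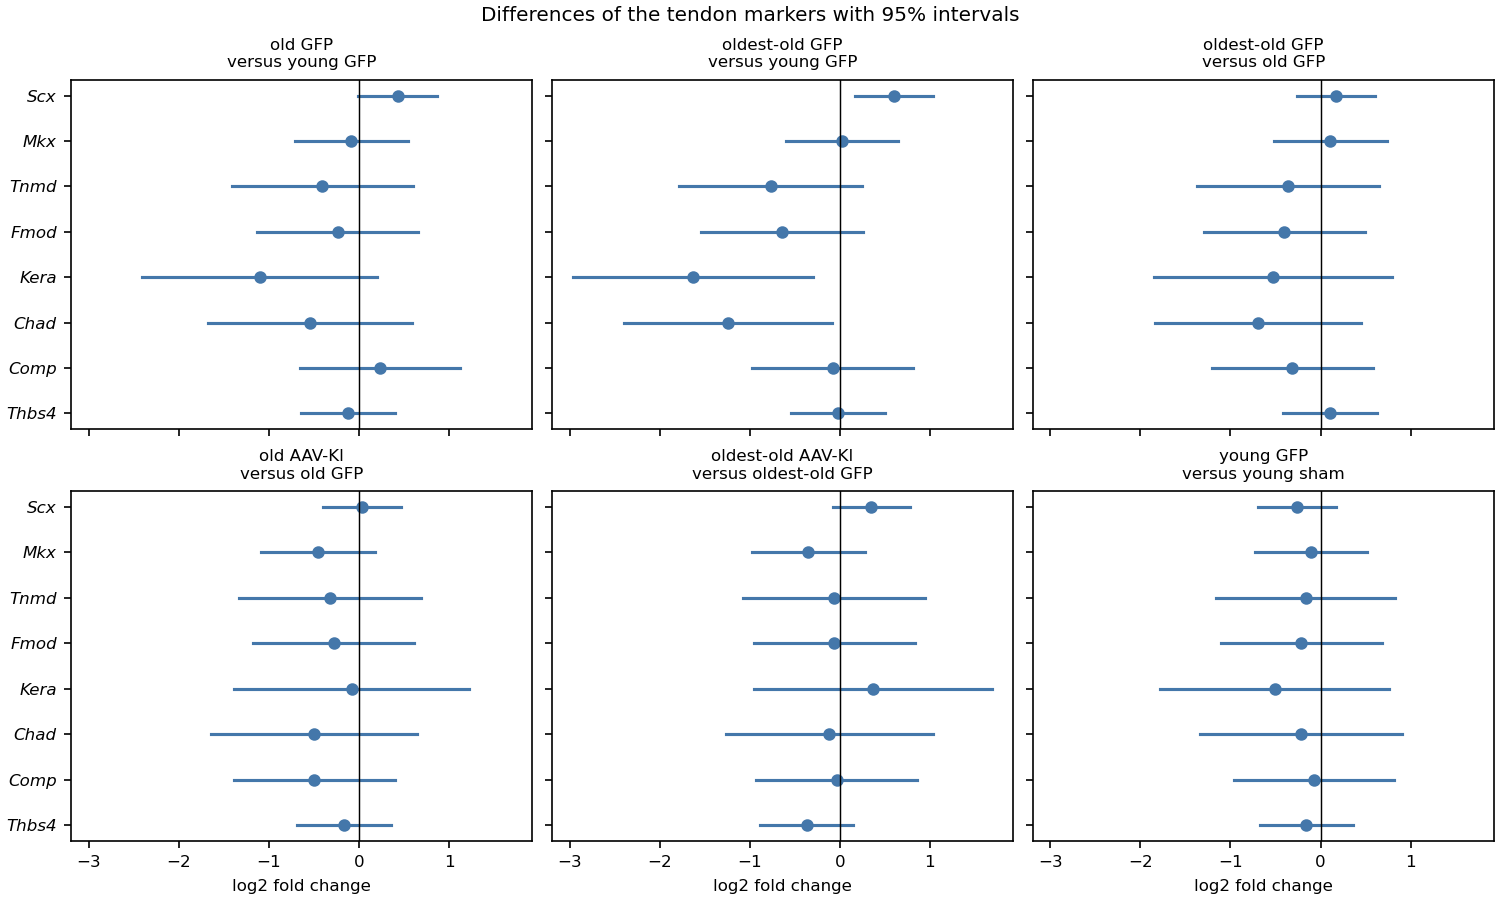
Log2 fold changes of the 8 markers in 6 comparisons of groups of 4 mice, with points for the edgeR estimate and lines for its 95% interval. In oldest-old against young GFP mice the intervals of Scx, Kera and Chad lay to 1 side of 0 before adjustment, and in the other panels every interval crossed 0.

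Klotho treatment was followed by no called marker at either age. Old AAV-Kl against old GFP mice gave 0 of 8 by edgeR (background 0%), 0 of 8 at an unadjusted p under 0.05 (background 2.15%), 0 of 8 by DESeq2 (background 0%) and 0 of 8 without overlap (background 1.68%). The largest log2 differences were -0.50 for Chad (SE 0.55) and -0.50 for Comp (SE 0.43). On leaving out each library they ran from -0.82 to -0.27 for Chad and from -0.67 to -0.25 for Comp. Oldest-old AAV-Kl against oldest-old GFP mice likewise gave 0 of 8 by edgeR (background 0.0112%, or 0.00552% without oldest-old GFP 4 and oldest-old AAV-Kl 3). It gave 0 of 8 at an unadjusted p under 0.05 (background 8.08%), 0 of 8 by DESeq2 (background 0.146%) and 0 of 8 without overlap (background 2.65%). The intervals leave wide room: for Kera the log2 difference was -0.08 (95% interval -1.39 to 1.22) in old mice and 0.37 (95% interval -0.95 to 1.69) in oldest-old mice. The difference of the Klotho effects between the ages, tested as an interaction, also gave 0 of 8 by edgeR (background 0.00562%, or 0.00552% without those libraries), 0 of 8 at an unadjusted p under 0.05 (background 5.76%) and 0 of 8 by DESeq2 (background 0.00562%). Young GFP against young sham mice gave 0 of 8 by edgeR (background 0.472%), 0 of 8 at an unadjusted p under 0.05 (background 13.4%), 0 of 8 by DESeq2 (background 1.6%) and 0 of 8 without overlap (background 9.76%). The 84 genes behind that 0.472% became 1 without young sham 2, 10 without young GFP 4, 32 without young sham 3, 33 without young GFP 2 and 42 without young GFP 1. The largest log2 difference was -0.51 for Kera (SE 0.61, edgeR adjusted p = 0.723), and it ran from -0.68 to -0.20 on leaving out each library.

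After these 7 planned comparisons had called no marker and the Kera values had been seen, an eighth contrast was added, the mean of the 4 older groups against the mean of both young groups. Because it was chosen for the values it then tested, and because it mixes sham, GFP and AAV-Kl mice, its p-values are a description and do not stand beside the planned ones. It called 3 of 8 markers by edgeR where 23.8% of all genes were called (3 of 8 and 24.4% without oldest-old GFP 4 and oldest-old AAV-Kl 3), and 5 of 8 had an unadjusted p under 0.05 where 35.4% of all genes did. The called markers were Kera at a log2 difference of -1.55 (SE 0.37, adjusted p = 0.00415), Chad at -1.16 (SE 0.32, adjusted p = 0.0127) and Scx at 0.48 (SE 0.13, adjusted p = 0.0106). DESeq2 called 4 of 8, with Tnmd at -0.77 (adjusted p = 0.0345) as the added marker and a background of 24.9%, where edgeR gave Tnmd an adjusted p of 0.0576 that fell under the threshold on leaving out young sham 1, young GFP 4, old GFP 2, old AAV-Kl 4, oldest-old GFP 2 or oldest-old AAV-Kl 1 (0.0405 to 0.0485 without these). Among single libraries, the highest Kera level in the older groups was 5.46 CPM in old GFP 2 and the lowest in the young groups 4.78 CPM in young GFP 4, so the ages still overlapped.

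The clearest pattern among the markers lay between mice of 1 group. With group means removed, log2 CPM of Mkx, Tnmd, Fmod, Kera, Chad, Comp and Thbs4 rose and fell together over 24 libraries in all 21 of their pairs, with r from 0.62 for Thbs4 with Kera to 0.96 for Fmod with Comp and a median of 0.89. Spearman's rho ran from 0.72 to 0.93. Each of these pairs had a Benjamini-Hochberg adjusted permutation p over the 28 pairs of the 8 markers of 0.000347 or less for r and 0.000453 or less for rho, and for r of Fmod with Comp the permutation p was 1e-05, the smallest that 100000 permutations can give (adjusted 2.33e-05). Leaving out the libraries farthest from the median left r between 0.57 and 0.95. Scx stood outside: its r with the other 7 ran from -0.21 to 0.11, its rho from -0.15 to 0.04, and no adjusted permutation p was under 0.653. With the libraries farthest from the median left out, r of Scx with the others ran from -0.26 to 0.27.

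**Figure D3:**
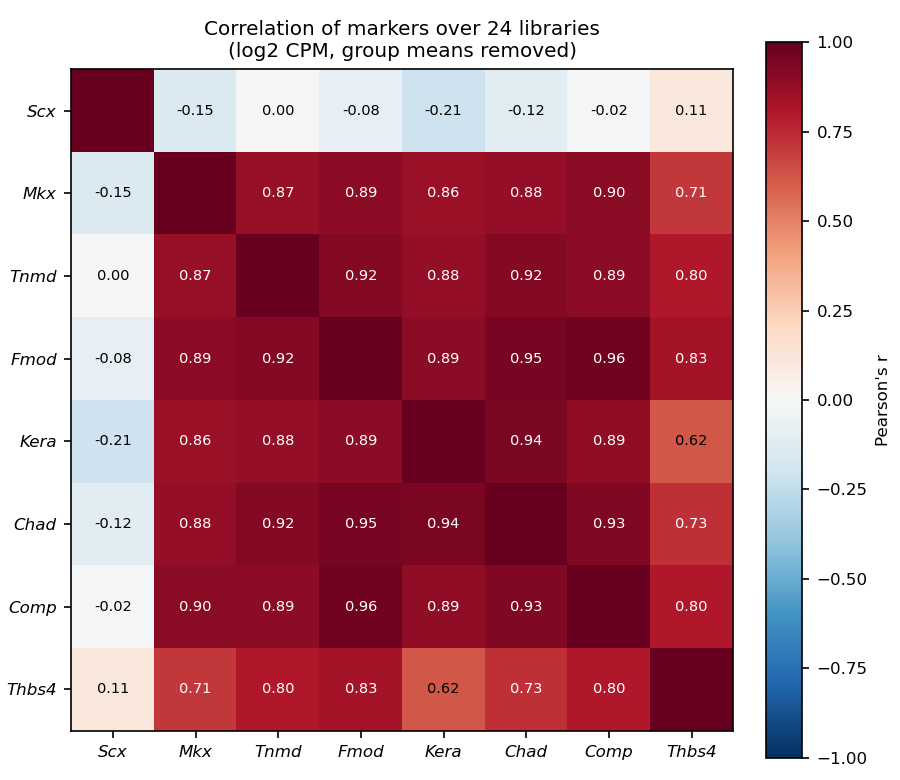
Pearson's r between the log2 CPM of each pair of markers over 24 libraries after group means were removed, on a colour scale from -1 to 1. The 21 pairs without Scx ran from 0.62 to 0.96, and the 7 pairs with Scx from -0.21 to 0.11.

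The spread behind these correlations was large for most markers. The SD of log2 CPM between mice of 1 group was 1.26 for Kera, 0.960 for Chad, 0.785 for Tnmd, 0.702 for Fmod and 0.691 for Comp, against a median of 0.235 over all genes tested. Kera exceeded 97.5% of genes in this respect and Scx, with an SD of 0.311, 61.0%. The extremes were single libraries: oldest-old GFP 4 was lowest of all for Mkx, Tnmd, Fmod, Kera, Chad and Comp, oldest-old AAV-Kl 3 was lowest for Thbs4 at 32.2 CPM, and young sham 2 was highest for Tnmd, Fmod, Kera, Chad and Thbs4. Oldest-old AAV-Kl 3 was among the 3 lowest libraries for all 7 markers other than Scx, and it held the highest Scx. Thbs4 was less low than the others in oldest-old GFP 4: the ratio of its CPM to that of Fmod was 2.001 there and 1.09 in oldest-old AAV-Kl 3, while in the other libraries it lay at 0.791 or below.

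**Figure D4:**
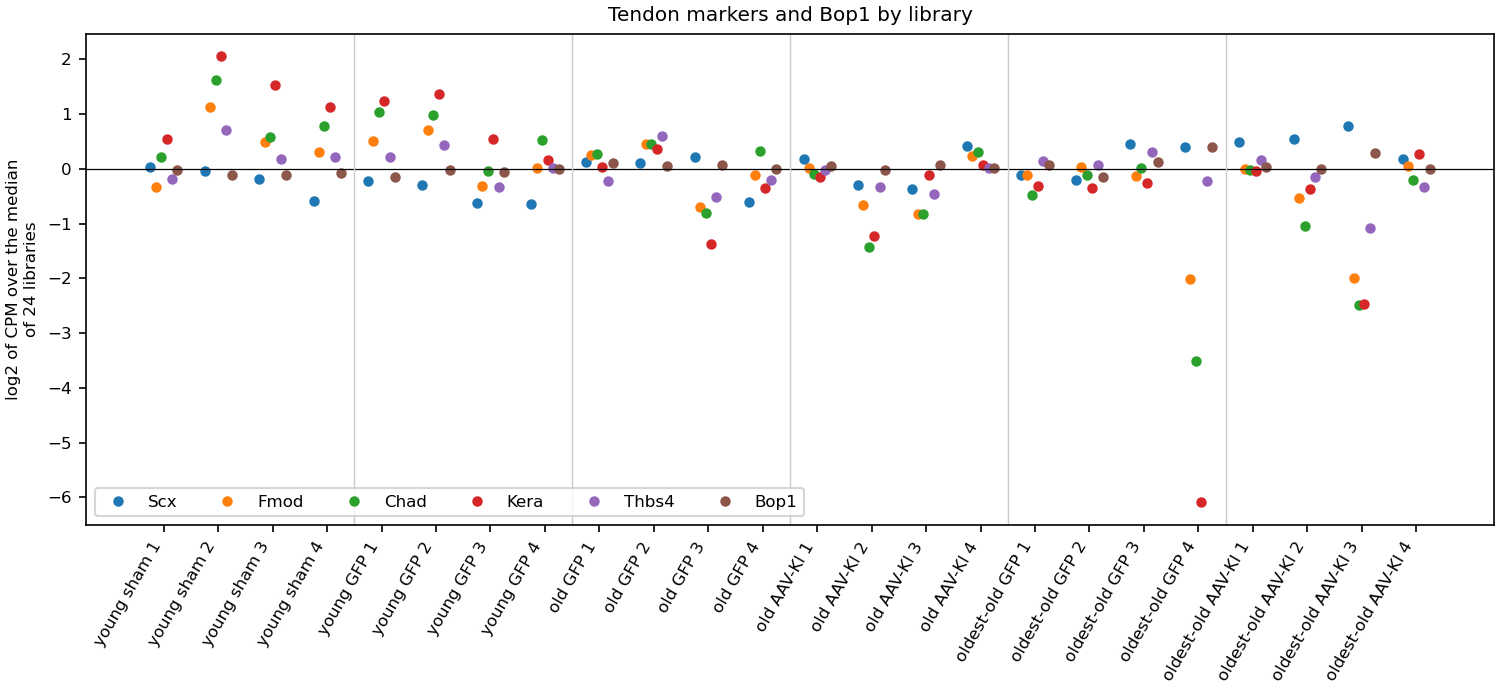
Log2 of the CPM of Scx, Fmod, Chad, Kera, Thbs4 and the Scx host gene Bop1 over each gene's median in 24 libraries, with libraries on the horizontal axis and lines between groups. Kera, Chad and Fmod lie far under 0 in oldest-old GFP 4 and oldest-old AAV-Kl 3, where Scx and Bop1 lie above it.

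Summed levels of 4 lists of other cells' markers were read in these libraries as well. The summed CPM of 8 fibroblast genes, with Gsn the most abundant per kilobase, was 594 in oldest-old AAV-Kl 3 and 1066 in oldest-old GFP 4, the lowest pair of the 24 libraries, and 2341 in young sham 2, the highest. The fibroblast list shares some genes with the proteoglycan and tendon matrix lists given below. The summed CPM of 7 slow fibre genes, with Myl2 the most abundant per kilobase, was 4831 in oldest-old AAV-Kl 3, the highest of all, and 3763 in oldest-old GFP 4 against a median of 1817. The 8 genes of skeletal muscle fibres, with Acta1 the most abundant per kilobase, summed to 106626 in oldest-old GFP 4, the lowest, and to 118026 in oldest-old AAV-Kl 3. The 5 macrophage genes, with C1qa the most abundant per kilobase, summed to 19.3 CPM in oldest-old AAV-Kl 3, the lowest, and to 44.8 CPM in oldest-old GFP 4 against a median of 47.4 CPM. The part of these cells in the low tendon markers was not tested. Of 9 cartilage genes the defining Acan had at most 4 reads in a library and Matn1 at most 2, while Col2a1 reached 60 reads, Col9a1 146 reads and Sox9, the most abundant per kilobase, 430 reads. The list summed to between 3.66 and 9.74 CPM, highest in oldest-old AAV-Kl 3. Of 6 bone genes Mepe had at most 1 read, Bglap 3, Sp7 6, Dmp1 12, Ibsp 28 and Phex 60, and the list summed to 2.005 CPM at most, with Phex the most abundant per kilobase.

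Among the other 17795 genes tested, 99 had r above 0.8 and 12 had r under -0.8 with the mean z-score of the 8 markers over 24 libraries, group means removed. The 10 highest were Serpinf1 (r = 0.94), Wif1 (r = 0.93), Crispld2 (r = 0.92), Col12a1 (r = 0.92), Angptl1 (r = 0.91), Ssc5d (r = 0.91), Cpxm2 (r = 0.91), Col8a2 (r = 0.90), Clec11a (r = 0.90) and Col1a2 (r = 0.89). Without oldest-old GFP 4 and oldest-old AAV-Kl 3, r stayed between 0.80 for Col1a2 and 0.90 for Wif1.

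Other genes of tendon are given from a list beside the 8 markers, whose median log2 difference between oldest-old and young GFP mice was -0.36, and no test compared the list with the markers. In oldest-old against young GFP mice, 6 of 20 tendon matrix and tenocyte genes were called by edgeR, 5 lower and 1 higher, where 14.9% of all genes were called, with a median log2 difference of -0.49 against 0.03 over all genes. Cilp, a matrix protein of cartilage and tendon and the most abundant of the list per kilobase, rose from 26.6, 37.5, 23.7 and 25.7 CPM in young GFP mice to 217, 87.5, 108 and 151 CPM in oldest-old GFP mice (log2 difference 2.31, SE 0.41, edgeR adjusted p = 0.00117). Its relative Cilp2 fell from 7.70, 10.3, 4.85 and 5.24 CPM to 1.51, 1.98, 2.27 and 0.732 CPM (log2 difference -2.12, SE 0.44, edgeR adjusted p = 0.00334). Both genes separated the ages without overlap, in opposite directions. The fibril collagen genes Col1a1 (log2 difference -1.77, SE 0.41, edgeR adjusted p = 0.00727) and Col11a1 (log2 difference -1.65, SE 0.26, edgeR adjusted p = 0.000346) were lower as well. Col5a1, named after its values were seen, was called at -0.81 and lost that call without young GFP 2, young GFP 4 or oldest-old GFP 4 (adjusted p-values up to 0.083). In old against young GFP mice 2 of the 20 were called (4.7% of all genes), Col11a1 at -1.34 and Cilp at 1.66 on the log2 scale, with a median of -0.27. The Cilp call there was lost without young GFP 1, 3 or 4 or old GFP 2, with adjusted p-values up to 0.0733.

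Of 13 tendon regulators, the signals and transcription factors that act on tenocytes, 6 were called in oldest-old against young GFP mice (14.9% of all genes), 5 higher and 1 lower, with a median log2 difference of 0.31. Not all of these calls were kept under the alternatives. Gdf5, a growth factor of joints and tendons, was at 0.0482 CPM or less in each young GFP library and at 1.16, 0.603, 1.83 and 1.96 CPM in oldest-old GFP mice (log2 difference 5.28, SE 0.95, edgeR adjusted p = 0.00117). Its young GFP values rest on 1 or 2 reads a library, so the size of that fold depends on the prior count. The immediate-early factors Egr1 (log2 difference 3.26, SE 0.60, edgeR adjusted p = 0.00142) and Egr2 (1.72, SE 0.45, edgeR adjusted p = 0.014) rose too, though Egr2 had an adjusted p of 0.054 without young GFP 1 and 0.0634 on the compared groups alone. Smad3, which carries transforming growth factor beta signals, fell from 180, 181, 180 and 202 CPM to 84.7, 74.5, 113 and 60.1 CPM (log2 difference -1.16, SE 0.14, edgeR adjusted p = 4.52e-05). Smad3 was also called in young GFP against young sham mice, 0.62 higher (edgeR adjusted p = 0.0417), a call that was lost on leaving out any 1 of 6 of the 8 libraries compared (adjusted p-values up to 0.177), the exceptions being young sham 1 and young GFP 3. It was also lost with a replicate block and was kept in the other 5 alternatives.

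Of 10 genes that muscle fibres express at the myotendinous junction, 5 were called in oldest-old against young GFP mice (14.9% of all genes), 3 higher and 2 lower, with a median log2 difference of 0.20. Ankrd1, a stretch-responsive protein of the fibre, rose from 4.47, 4.78, 6.69 and 6.93 CPM to 73.4, 36.6, 50.04 and 115 CPM (log2 difference 3.59, SE 0.40, edgeR adjusted p = 2.21e-05). Slc24a2 (0.97, SE 0.26, edgeR adjusted p = 0.0144, up to 0.0601 without young GFP 3, young GFP 4 or oldest-old GFP 4, 0.0535 on the compared groups alone, and lost without oldest-old GFP 4 and oldest-old AAV-Kl 3) and Itga7 (0.48, SE 0.10, edgeR adjusted p = 0.00303) were higher and Fras1, a basement membrane protein, lower (-1.04, SE 0.24, edgeR adjusted p = 0.00598). Vcl, the other lower gene, named after its values were seen, was called at -0.25 (SE 0.07, edgeR adjusted p = 0.0253). That call was lost without young GFP 1, young GFP 4 or oldest-old GFP 4 (adjusted p-values up to 0.0638), on the compared groups alone, and without oldest-old GFP 4 and oldest-old AAV-Kl 3. Tln1, the most abundant of the list per kilobase, did not pass. Of the small leucine-rich proteoglycans other than Fmod, Kera and Chad, 13 of 15 could be tested, with a median log2 difference of 0.18. By edgeR 0 were called and by DESeq2 0, with 1 at an unadjusted p under 0.05. Over all genes these shares were 14.9%, 17.4% and 29.8%. Dcn was the most abundant of these proteoglycans per kilobase. Of the other 3 thrombospondins 1 was called, Thbs1 at 1.09 (SE 0.34, edgeR adjusted p = 0.0366), and of the 8 libraries compared only the removal of oldest-old GFP 4 kept that call (adjusted p-values up to 0.11 without another). Of 7 slow fibre genes 6 were higher, led by Myh7 at 1.75 (SE 0.36, edgeR adjusted p = 0.00303). Of these, Myl2 lost its call without young GFP 3, young GFP 4, oldest-old GFP 1 or oldest-old GFP 4 (adjusted p-values up to 0.141) and on the compared groups alone (0.0575), and Atp2a2 without young GFP 4, oldest-old GFP 1 or oldest-old GFP 4 (up to 0.054). Of 8 fibroblast genes 0 were called by edgeR and 1 by DESeq2, with 1 at an unadjusted p under 0.05. In the Klotho comparisons of both ages 0 genes of these tendon, junction, proteoglycan and thrombospondin lists were called by edgeR and 0 by DESeq2. Over all genes the share called in old mice was 0% by either. In oldest-old mice it was 0.0112% by edgeR and 0.146% by DESeq2, so that 0 calls is near the background. For the 20 tendon matrix genes the median log2 difference was -0.05 in old mice, with 0 at an unadjusted p under 0.05 (2.15% of all genes). In oldest-old mice it was 0.12, with 2 at that threshold (8.08% of all genes).

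**Figure D5:**
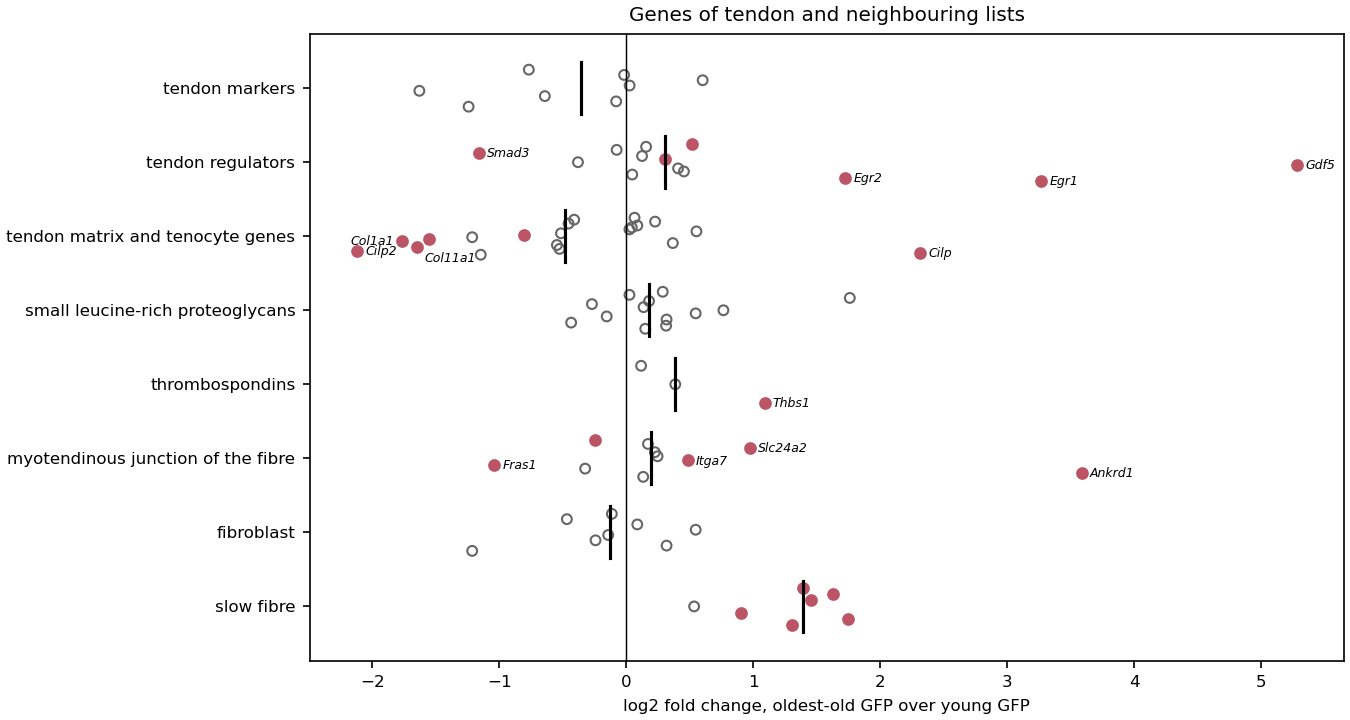
Log2 fold change of oldest-old GFP over young GFP mice for each tested gene of 8 lists, with filled points for an edgeR adjusted p under 0.05, open points for the rest, bars for each list's median and names, outside the slow fibre list, for up to 4 filled points of largest change. No tendon marker is filled, while Gdf5 reaches 5.28, Ankrd1 3.59, Egr1 3.26 and Cilp2 -2.12.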

How the data were processed

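Gastrocnemius RNA was counted per gene in 24 libraries. The authors aligned reads with STAR to mm10, and of the deposited columns the one that counts reads without regard to strand was used, since 49.8% to 50.4% of reads in each library fell on the first strand. FastQC and DESeq2 are also named in the submitters' processing notes, without versions. Between 23.0% and 25.3% of reads fell on no single gene and were left out. Gene symbols came from GENCODE M21, matched for 55144 of 55385 identifiers.

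Counts were fitted with edgeR 4.0.16 in R 4.3.3 (TMM, filterByExpr, quasi-likelihood test, 1 fit of 24 libraries) and adjusted by Benjamini-Hochberg over 17803 genes. DESeq2 1.42.0 was an alternative, beside other size factors, no filter, stranded columns, fewer groups, a replicate block and each library left out. Correlations used log2 CPM (prior count 2) with group means removed and 100000 permutations within groups. The edgeR fit was tested on simulated counts for oldest-old against young GFP mice. No pair of libraries within a group agreed within sampling noise (36 pairs, chi-square per degree of freedom at least 9.45). The highest values, 122, 128 and 137, were those of pairs with oldest-old GFP 4. That library also had the most reads on genes, 59733985. Members and lists were chosen with earlier results of these data known. Genes named are the markers, their overlapping genes, the most abundant gene per kilobase of most lists and up to 4 called genes with the largest change, and the 10 genes most like the markers.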

Additional observations from a re-analysis of the deposited data

Results flagged for a closer look

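Several values stood apart from the other 3 libraries of their group by a gap that filled more than 0.829 of the group's range, in 18 of 162 groups looked at, where chance gives about 1 in 20. Among the tendon markers, oldest-old GFP 4 had 28.98 CPM of Fmod against 107 CPM or more in the rest of its group, 0.0623 CPM of Kera against 3.33 CPM or more, and 99.69 CPM summed over the 8 markers against 215 CPM or more. Old AAV-Kl 4 had 0.7372 CPM of Mkx against 0.518 CPM or less. Of the host genes, Bop1 reached 31.21 CPM in oldest-old AAV-Kl 3 and Acsf2 14.37 CPM in oldest-old AAV-Kl 2.

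The summed CPM of marker lists for other cells stood apart as follows. Muscle fibre genes summed to 125700 in old AAV-Kl 3 and to 149000 in oldest-old AAV-Kl 4, and slow fibre genes to 3105 in old GFP 3. Fibroblast genes summed to 2087 and macrophage genes to 42.16 in young GFP 2. Keratinocyte genes summed to 141.1 in young sham 4 and 89.52 in old AAV-Kl 2. Adipocyte genes summed to 987.3 in old AAV-Kl 2 and 688.9 in oldest-old AAV-Kl 2. Hepatocyte genes summed to 855.7 in old GFP 1 and 136.0 in old AAV-Kl 4, and endothelial genes to 278.0 in young sham 1.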

How the results depend on the processing

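The count of tendon markers called in oldest-old against young GFP mice was 0 by edgeR and 1 by DESeq2 (Scx). It ran from 0 to 1 on leaving out each library, with 1 without oldest-old GFP 2, and was 1 (Kera) without oldest-old GFP 4 and oldest-old AAV-Kl 3, an alternative chosen after seeing the data. In the other planned comparisons it was 0 under each alternative run. Leaving out young sham was not run for young GFP against young sham mice or for the contrast added over all groups, and that contrast was not run on fewer groups. With 4 libraries a group, small differences of the more variable markers were not detectable. The cause was not tested for any value here.

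Some log2 differences near 0 changed sign. In oldest-old against young GFP mice Mkx was -0.0079 by DESeq2, Thbs4 was 0.027 with a replicate block, and without the 2 libraries Comp was 0.22 and Thbs4 0.056. Kera in old AAV-Kl against old GFP mice was 0.038 with the replicate block, and Comp over all older against all young groups was 0.040 without the 2 libraries. The labels do not say whether replicate numbers pair samples across groups. With group means removed, r between same-numbered libraries of different groups ran from -0.533 to 0.45 over the tested genes. The closest library in another group had the same number in 27 of 120 cases. With the block 2510 genes were called in oldest-old against young GFP mice, where 2649 were called without it. That count was 1249 on the compared groups alone and 1755 without the filter, and it ran from 1674 to 2755 on leaving out a library. In old against young GFP mice, where 837 were called, it was 1275 on the compared groups alone and 553 without the filter. In young GFP against young sham mice, where 84 were called, it was 174 on the compared groups alone and 59 without the filter. The range on leaving out a library was 366 to 679 in old against young GFP mice, 0 to 3 in oldest-old against old GFP mice, 0 and 1 to 4 for Klotho in old and oldest-old mice, 0 to 1 for the difference of these effects and 1 to 114 in young GFP against young sham mice.

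On leaving out each library, log2 differences that crossed 0 ran as follows. In old against young GFP mice the range was -0.24 to 0.033 for Mkx, -0.0205 to 0.41 for Comp and -0.41 to 0.0078 for Thbs4. In oldest-old against young GFP mice it was -0.15 to 0.25 for Mkx, -0.35 to 0.22 for Comp and -0.17 to 0.10 for Thbs4. In oldest-old against old GFP mice it was -0.067 to 0.35 for Mkx, -0.57 to 0.00012 for Comp and -0.025 to 0.39 for Thbs4. For Klotho in old mice it was -0.59 to 0.0044 for Tnmd, -0.14 to 0.14 for Scx, -0.30 to 0.12 for Thbs4 and -0.32 to 0.16 for Kera. For Klotho in oldest-old mice it was -0.38 to 0.23 for Tnmd, -0.36 to 0.23 for Fmod, -0.35 to 0.21 for Comp, -0.49 to 0.19 for Chad and -0.049 to 0.70 for Kera. For the difference of these effects it was -0.071 to 0.55 for Tnmd, -0.13 to 0.29 for Mkx and -0.074 to 0.51 for Fmod. In young GFP against young sham mice it was -0.38 to 0.10 for Tnmd, -0.22 to 0.015 for Mkx, -0.37 to 0.10 for Fmod, -0.24 to 0.20 for Comp, -0.27 to 0.048 for Thbs4 and -0.35 to 0.16 for Chad. Over all older against all young groups Comp ran from -0.20 to 0.023.

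The correlations of the 7 markers other than Scx passed in 21 pairs under each alternative run with group means removed.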

Other observations

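Lists of other cell types were read for their own values. All 8 hepatocyte genes were called higher in old GFP than in young GFP mice, where 4.7% of all genes were called, with a median log2 difference of 9.41. Their summed CPM was 856 in old GFP 1, 3.72 in old GFP 2, 1.10 in old GFP 3 and 86.8 in old GFP 4, with Alb the most abundant per kilobase. All 8 calls were lost without old GFP 1, where the adjusted p of Alb was 0.0674. On the compared groups alone every call but that of Alb was lost. Some were also lost on leaving out a single young GFP library. Of 8 keratinocyte genes 3 were called lower in oldest-old than in young GFP mice, with Krt10 the most abundant per kilobase, and the list summed to 360.0 CPM in young GFP 3 and 12.5 CPM in young GFP 2. These calls were lost on leaving out any of 6 of the 8 libraries compared, with adjusted p-values up to 0.14 for Krt10. All 3 were also lost on the compared groups alone (adjusted p = 0.0666 for Krt10). The same held without oldest-old GFP 4 and oldest-old AAV-Kl 3. Of 5 endothelial genes Vwf was called higher at 0.78 (SE 0.18, edgeR adjusted p = 0.00775), with Cdh5 the most abundant per kilobase, and of 3 cartilage genes tested Sox9 was called higher at 0.97 (SE 0.28, edgeR adjusted p = 0.0261, up to 0.0847 without young GFP 1, young GFP 4, oldest-old GFP 1 or oldest-old GFP 4). Of 8 muscle fibre genes Myh1 was called higher at 0.64 (adjusted p = 0.0511 on the compared groups alone) and Myh4 lower at -0.33, the latter with an adjusted p up to 0.143 on leaving out a library and 0.137 on the compared groups alone. Adipocyte (Cfd the most abundant per kilobase), macrophage (C1qa) and bone genes gave 0 calls by edgeR in that comparison, with 0, 2 and 0 at an unadjusted p under 0.05 and 0, 1 and 0 by DESeq2. In oldest-old against young GFP mice 14.9% of all genes were called by edgeR and 17.4% by DESeq2. An unadjusted edgeR p under 0.05 was found there for 29.8% of all genes.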
